A study of Homo sapiens with 8 samples.

Results

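The transcripts described here encode 57 human proteins of tRNA modification, other than TRMT6 and TRMT61A, the subunits of the overexpressed m1A writer. They were chosen by name from general knowledge of the pathway and were found in the gene count table by Ensembl identifier. All 57 of the 58302 genes in the table matched, and all 57 were among the 14133 genes that passed the filter on low counts. The comparison addressed whether the mRNA levels of these enzymes differed when the m1A writer was overexpressed.

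RNA sequencing was done in DLD1 cells, a human colorectal cancer cell line. The OE-WT group stably carried lentiviral wild-type TRMT6 and TRMT61A, the non-catalytic and the catalytic subunit of the enzyme that writes m1A in the T arm of cytosolic tRNAs, and the CTRL group carried the empty lentiviral vector in the same parental line. Each group had 2 libraries, each run on 2 lanes that were summed in the table. The labels call the groups TRMT6/TRMT61A overexpression and WT with treatment Control, while the series design also speaks of separate TRMT6 and TRMT61A cultures, for which there are no libraries among these 4. No catalytically inactive control was among them, so that expression of the transgenes and gain of methylation cannot be told apart. The design text gives duplicate cultures per group but does not say that the lines were derived separately, so p-values measure the spread between these libraries only.

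A tRNA is altered at many bases after it is transcribed, and the modifications fall into functional groups. Those in the anticodon loop, at the wobble base and beside the anticodon, tune decoding, whereas those in the D arm, the T arm and the core mostly serve folding and stability. Many of the enzymes work as pairs, a catalytic subunit with a partner that binds tRNA or activates it, and separate sets serve cytosolic and mitochondrial tRNAs. Their RNA products are not measured by mRNA libraries, so the values below are levels of the enzymes' transcripts only.

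Total counts ranged from 10327498 to 12379671 per library, and a count of 3 corresponded to 0.242 to 0.290 CPM by library size alone. CPM, counts scaled to a fixed library total, are otherwise given after TMM, a size factor computed from all genes. The lowest correlation of log levels between any pair of libraries was 0.977. TRMT6 was at 210.7 and 180.9 CPM in OE-WT and at 52.6 and 55.4 CPM in CTRL, a log2 fold change of 1.86 (SE 0.08, adjusted p = 8.52e-13 by the quasi-likelihood F test of edgeR, adjusted after Benjamini and Hochberg over all genes tested). TRMT61A was at 137.5 and 130.4 CPM against 58.9 and 56.8 CPM, a log2 fold change of 1.21 (SE 0.07, adjusted p = 1.88e-10 by the same edgeR test). Both targeted genes matched the labels in all 4 libraries. Of the 12 colon epithelium markers, EPCAM, KRT8, KRT18, KRT19, CDH1 and CDX2 were at 95.46 CPM or more in every library, KRT20 was at 8.36 to 27.1 CPM and VIL1 at 2.80 to 4.53 CPM. LGALS4 and CEACAM5 were at 0.688 to 2.10 CPM, GPA33 had 4 to 12 counts, and CDX1 was at or under 1 count. Of the 10 that were tested, 4 were called lower in OE-WT, among them KRT20 with a log2 fold change of -1.52, and 2 higher, and the summed level of all 12, mostly that of KRT8 and KRT18, was 12110 and 12450 CPM in OE-WT and 11080 and 10880 CPM in CTRL. Of the other cell types' markers, COL1A2, COL3A1, DCN, PDGFRA, CD3E, CDH5 and KDR were at 0 in every library, LUM and PECAM1 were at or under 3 counts, the 5 leukocyte markers were at or under 4 counts each, and the fibroblast marker COL1A1 had 22 and 18 counts in OE-WT and 19 in each CTRL library (log2 fold change 0.40, not called). VWF, called lower, is an endothelial marker whose counts were 30 and 14 in the CTRL libraries and 5 and 6 in the OE-WT libraries. The part of these markers in the results below was not tested. In bulk RNA, fewer cells with a transcript and less of it per cell cannot be told apart.

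Of the 57 members, 5 were called higher in OE-WT at an adjusted p below 0.05 and 0 were called lower. The share called higher was 8.77%, and over all genes tested it was 9.44%. For lower calls the background was 11.6% of all genes. At an unadjusted p below 0.05, 12 members were higher (21.1%, against 16.4% of all genes) and 0 were lower (against 17.5%). DESeq2 called 3 members higher and 0 lower, where it called 4.35% and 7.15% of the genes to which it gave an adjusted p. The 5 members called by edgeR were TRUB2, TRMT1, URM1, NSUN2 and THUMPD1. Each belonged to a different group of the list, where that of THUMPD1 is a remainder of mixed modifications. The share called higher thus lay near the background.

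The members' changes were small. The log2 fold change had a median of 0.14 over the 57 members and of 0.01 over all genes tested. It ranged from -0.21 for PUS3 to 0.57 for THUMPD1, and 40 members (70.2%) lay above 0, against 51.1% of all genes. With each OE-WT library set against each CTRL library, the median of the members lay between 0.11 and 0.16. In 24 members (42.1%, against 29.9% of all genes) both OE-WT libraries lay above both CTRL libraries, in 8 (14%, against 30.2%) both lay below, and in 25 the groups overlapped. The summed level of all 57 transcripts was 1325 and 1301 CPM in OE-WT and 1202 and 1217 CPM in CTRL, a ratio of 1.09. No member passed an unadjusted p below 0.05 together with an absolute log2 fold change above 1, thresholds that 3.15% of all genes passed. These are counts over a chosen list without a test of the list. The median depended on the scaling: with library size alone in place of TMM it was 0.04, where the median of all genes moved to -0.08, and 33 members lay above 0.

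**Figure D1:**
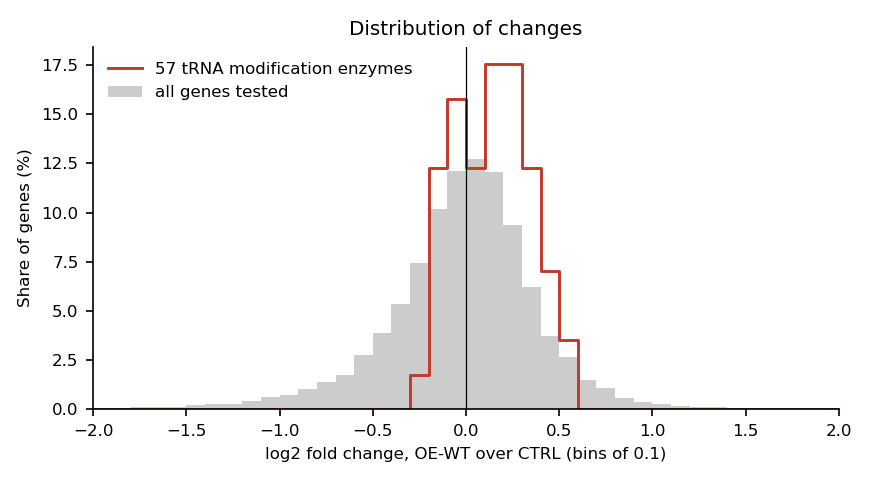
Share of genes (%, vertical axis) in each bin of 0.1 of the log2 fold change, OE-WT over CTRL (horizontal axis), for all 14133 genes tested (grey bars) and for the 57 tRNA modification enzymes (red line). The members occupy the middle of the distribution, from -0.21 to 0.57, with their median at 0.14.

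**Figure D2:**
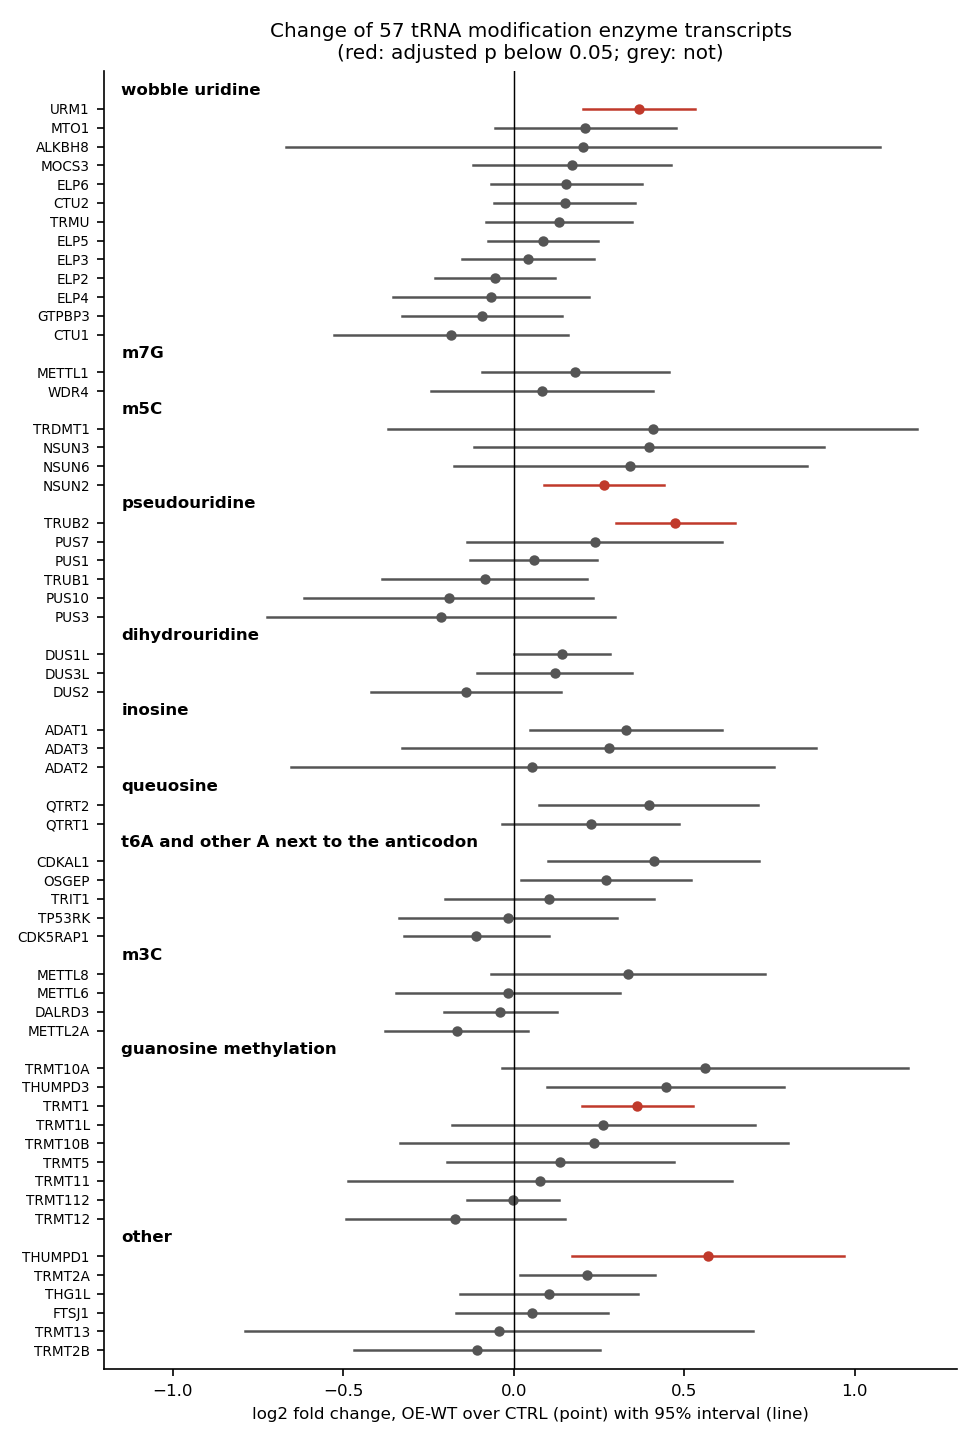
Log2 fold change of each of the 57 members, OE-WT over CTRL (points), with its 95% interval (lines), ordered by modification group. Red marks the 5 members with an adjusted p below 0.05, TRUB2, TRMT1, URM1, NSUN2 and THUMPD1, all to the right of 0.

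The intervals say how large a change the libraries allow. For 54 of 57 members the 95% interval lay within a 2-fold change in either direction, and for 36 it lay within 1.5-fold. The 3 exceptions were ALKBH8 (-0.67 to 1.07), TRDMT1 (-0.37 to 1.18) and TRMT10A (-0.03 to 1.16 on the log2 scale). They are among the 11 members with a mean under 50 counts per library. A change of 2-fold or more was thus outside the interval of most members, whereas smaller changes were not resolved for many.

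The largest group, 13 genes, acts on the uridine at the wobble position. URM1, a ubiquitin-like protein that carries sulfur to the cytosolic thiolation enzymes (ENSG00000167118, chr9:128371361-128392016, plus strand, GRCh38), was at 53.9 and 54.6 CPM in the OE-WT libraries and at 41.3 and 42.9 CPM in the CTRL libraries. Both OE-WT libraries stood above both CTRL libraries. Its log2 fold change was 0.37 (SE 0.08, adjusted p = 0.00209 by edgeR, Benjamini-Hochberg adjusted), and it was called in all 7 alternative fits and with each library left out.

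The partners of URM1 were not called. MOCS3, which activates URM1 and loads it with sulfur, was at 13.3 and 14.2 CPM against 12.1 and 12.4 CPM, a log2 fold change of 0.17 (95% interval -0.12 to 0.46). CTU1, the thiolation enzyme that receives the sulfur, had a log2 fold change of -0.18 (interval -0.53 to 0.16) and its partner CTU2 one of 0.15 (interval -0.06 to 0.36). None of these 3 passed the test, and the differences between URM1 and each of them were not tested. CTU2 was called only when a trend of counts on GC content was removed, with an adjusted p of 0.0241 by edgeR.

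Elongator, the acetyltransferase complex that starts the cytosolic wobble uridine side chain, was represented by 5 subunits. Their log2 fold changes ran from -0.07 for ELP4 to 0.15 for ELP6, with a median of 0.04, and none passed the test. The catalytic subunit ELP3 was at 32.7 and 30.9 CPM in OE-WT and at 31.1 and 30.7 CPM in CTRL, so that the groups overlapped. All 5 intervals lay within a 1.5-fold change in either direction. ALKBH8, which methylates the side chain, had only 11 counts in OE-WT replicate 1, and its interval allowed changes in either direction.

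In mitochondria the same base is thiolated by TRMU and receives a taurinomethyl group from GTPBP3 and MTO1. None of the 3 passed the test. TRMU had a log2 fold change of 0.13 (interval -0.08 to 0.35), MTO1 of 0.21 (-0.06 to 0.48) and GTPBP3 of -0.09 (-0.33 to 0.14). Both OE-WT libraries of MTO1 lay above both CTRL libraries and both of GTPBP3 lay below, although GTPBP3 and MTO1 act together. TRMU was called after removal of the GC trend (adjusted p = 0.0426 by edgeR) and in no other alternative.

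The m7G writer is a pair, the catalytic METTL1 and the scaffold WDR4. METTL1 was at 17.1 and 21.6 CPM in OE-WT and at 18.0 and 16.1 CPM in CTRL, and WDR4 at 11.3 and 11.0 CPM against 11.5 and 9.50 CPM. The groups overlapped for both. Their log2 fold changes were 0.18 (interval -0.09 to 0.45) and 0.08 (interval -0.24 to 0.41), and neither passed the test.

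All 4 members that make m5C had log2 fold changes above 0, with a median of 0.37, and 1 of them was called. NSUN2, which methylates many cytosolic tRNAs (ENSG00000037474, chr5:6599239-6633291, minus strand), was at 52.5 and 49.4 CPM in OE-WT and at 40.0 and 44.9 CPM in CTRL, a log2 fold change of 0.27 (SE 0.09, adjusted p = 0.0298 by edgeR, Benjamini-Hochberg adjusted). Both OE-WT libraries were above both CTRL libraries, but the call rested on the setting. Its adjusted p was 0.182 with library size alone, 0.200 by DESeq2, 0.110 with every gene of at least 1 count and 0.118 after removal of the GC trend. Without OE-WT replicate 1 it was 0.152, and without CTRL replicate 1 it was 0.290, both by edgeR.

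The other m5C writers were far less abundant. NSUN3, which acts on mitochondrial tRNA-Met, was at 4.03 and 4.13 CPM in OE-WT and at 3.50 and 2.68 CPM in CTRL. NSUN6, which acts on the acceptor stem, was at 4.84 and 3.44 CPM against 3.34 and 3.17 CPM, and TRDMT1, also called DNMT2, at 1.51 and 1.97 CPM against 1.63 and 0.974 CPM. Their log2 fold changes of 0.40, 0.34 and 0.41 were close in size to that of URM1 and did not pass the test, with standard errors of 0.25, 0.25 and 0.37.

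Of the 6 pseudouridine synthases, 3 had log2 fold changes above 0 and 3 below, and 1 was called. TRUB2, the mitochondrial member (ENSG00000167112, chr9:128305159-128322447, minus strand), was at 51.2 and 48.9 CPM in OE-WT and at 35.4 and 36.6 CPM in CTRL. Both OE-WT libraries lay above both CTRL libraries, and the libraries of a group were close to each other. The log2 fold change was 0.47 (SE 0.08, adjusted p = 0.000303 by edgeR, Benjamini-Hochberg adjusted), and this was the lowest adjusted p of the 57 members. TRUB2 was called in all 7 alternative fits, with adjusted p between 0.000131 and 0.00457, and with each library left out.

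The related cytosolic synthase TRUB1, which modifies the T arm, was at 11.6 and 12.0 CPM in OE-WT and at 12.8 and 12.3 CPM in CTRL, a log2 fold change of -0.09 (interval -0.38 to 0.21). PUS1, which works in nucleus and mitochondria, had a log2 fold change of 0.06 (interval -0.13 to 0.24). PUS7 had one of 0.24, PUS10 of -0.19 and PUS3, the lowest of all members, of -0.21 (interval -0.72 to 0.30). None of these 5 passed the test.

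The stretch upstream of TRUB2 is shown because no other called member had a promoter stretch that could be printed. URM1 and NSUN2 had no promoter window, and the windows of TRMT1 and THUMPD1 lay inside annotated exons. The stretch was chosen after the values were seen. It spans 96 bases, chr9:128322448-128322543 on the minus strand in RefSeq GRCh38.p14, ends at the annotated TRUB2 start and lies between TRUB2 and COQ4, which begins at 128322544 on the other strand. The capitals mark an ETS motif, here CTTCCGG, the reverse complement of the searched CCGGAAG, and a GC box, GGGCGG.
TRUB2 upstream: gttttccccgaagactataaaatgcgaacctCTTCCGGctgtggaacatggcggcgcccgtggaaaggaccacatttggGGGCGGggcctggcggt

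COQ4, a coenzyme Q synthesis gene that shares this stretch, was not called (log2 fold change 0.27, adjusted p = 0.0555 by edgeR). TRUB2 and URM1 are neighbours on chromosome 9, with 48914 bases between them. Besides these members, the genes tested from TRUB2 to URM1 were SWI5, COQ4 and SLC27A4. SWI5 was called lower, with a log2 fold change of -0.58 (adjusted p = 0.00695), and SLC27A4 was not called at -0.13 (adjusted p = 0.215, both by edgeR, Benjamini-Hochberg adjusted). SWI5 lies on the other strand and covers 3.38% of the TRUB2 exon bases.

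Promoter windows of 300 bases were taken from RefSeq, the first listed of each gene, for 48 members and for 15843 protein-coding genes in all. The members all passed the filter on low counts, whereas the 15843 genes were not limited to genes expressed in these cells. The shares below thus compare unlike sets, and a comparison with expressed genes was not made. The ETS motif CCGGAAG, on either strand, was in 15 member windows (31.2%) and in 14.2% of all windows. The CCAAT box was in 15 (31.2%, against 36.4%), the GC box GGGCGG in 27 (56.2%, against 58.5%) and the E-box CACGTG in 2 (4.17%, against 8.88%). Both strands were searched for each, and none of these motifs contains another. Of the 3 called members with a window, TRUB2, TRMT1 and THUMPD1, all 3 held a GC box and only TRUB2 held the ETS motif. A match describes the letters of the window and not a bound site.

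None of the 3 dihydrouridine synthases passed the test. DUS1L, which acts on the D arm, was one of the most abundant members, at 110.5 and 113 CPM in OE-WT and at 98.9 and 103.9 CPM in CTRL. Its groups did not overlap, and the log2 fold change was 0.14 (SE 0.07, adjusted p = 0.148 by edgeR). It was called only after removal of the GC trend, with an adjusted p of 0.00292. DUS3L had a log2 fold change of 0.12 and DUS2 one of -0.14, with intervals of -0.11 to 0.35 and -0.42 to 0.14.

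Inosine is made at the wobble position by ADAT2 with ADAT3 and beside the anticodon of tRNA-Ala by ADAT1. ADAT1 was at 14.9 and 16.3 CPM in OE-WT and at 12.6 and 12.3 CPM in CTRL, a log2 fold change of 0.33 (SE 0.14, adjusted p = 0.0915 by edgeR). ADAT2, the catalytic subunit, was at 1.51 and 1.87 CPM against 1.55 and 1.71 CPM, and ADAT3 at 3.93 and 2.26 CPM against 2.57 and 2.52 CPM. The groups overlapped for both subunits. ADAT3 shares 34.8% of its exon bases with SCAMP4 on the same strand, so that its counts are uncertain.

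Queuosine is placed at the wobble guanosine by QTRT1 with its partner QTRT2. QTRT2 was at 14.5 and 12.3 CPM in OE-WT and at 9.41 and 11.0 CPM in CTRL, and QTRT1 at 18.8 and 17.6 CPM against 15.5 and 15.7 CPM. In both genes the OE-WT libraries lay above the CTRL libraries. The log2 fold changes were 0.40 (SE 0.15, adjusted p = 0.0729) and 0.23 (SE 0.12, adjusted p = 0.21, both by edgeR), and neither was called. For QTRT2 the adjusted p ran from 0.0312, without OE-WT replicate 2, to 0.374, without OE-WT replicate 1, and DESeq2 gave 0.303.

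The adenosine next to the anticodon carries t6A, made by the KEOPS complex, or i6A. OSGEP, the catalytic subunit of KEOPS, was at 20.6 and 19.5 CPM in OE-WT and at 16.1 and 17.1 CPM in CTRL, a log2 fold change of 0.27 (SE 0.12, adjusted p = 0.115 by edgeR). TP53RK, another KEOPS subunit, was at 18.6 and 12.6 CPM against 15.3 and 16.2 CPM, with the OE-WT libraries on either side of CTRL. CDKAL1, which adds methylthio to t6A in tRNA-Lys, was at 14.4 and 13.0 CPM against 9.72 and 10.9 CPM. Its log2 fold change was 0.41 (SE 0.15, adjusted p = 0.0539 by edgeR). With a library left out the adjusted p ran from 0.0436, without OE-WT replicate 2, to 0.282, without CTRL replicate 1, and DESeq2 gave 0.263.

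TRIT1, which makes i6A, differed little, with 11.7 and 11.8 CPM in OE-WT and 11.0 and 10.9 CPM in CTRL. CDK5RAP1, which adds methylthio to i6A in mitochondria, had a log2 fold change of -0.11 (interval -0.32 to 0.10). Neither passed the test.

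The 4 members of the m3C group had a median log2 fold change of -0.03, and none was called. METTL6 was at -0.02 (interval -0.34 to 0.31), DALRD3, a partner of METTL2 enzymes for tRNA-Arg, at -0.04 (-0.20 to 0.13), and METTL8, the mitochondrial enzyme, at 0.33 (-0.07 to 0.74). METTL2A was at 26.1 and 24.9 CPM in OE-WT and at 27.4 and 29.8 CPM in CTRL, a log2 fold change of -0.17 (SE 0.10, adjusted p = 0.256 by edgeR).

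METTL2A (chr17:62423875-62453385) has a near copy, METTL2B (chr7:128476729-128506602), which is not a member. Their coding sequences, each of 1134 bases, are identical at 98.68% of positions, and the longest identical run is 331 bases. The coding stretch from base 775 to base 864 of the canonical transcripts in GENCODE 44 is shown because it holds 4 of the 15 differing bases and shows how few letters separate the genes. Capitals mark the bases that differ.
METTL2A: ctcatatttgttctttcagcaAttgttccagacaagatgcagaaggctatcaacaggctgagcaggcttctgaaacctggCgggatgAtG
METTL2B: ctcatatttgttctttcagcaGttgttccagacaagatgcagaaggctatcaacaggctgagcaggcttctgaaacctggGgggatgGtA

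METTL2B was at 26.7 and 26.8 CPM in OE-WT and at 23.9 and 21.3 CPM in CTRL, a log2 fold change of 0.24 (SE 0.11, adjusted p = 0.106 by edgeR). The point estimates of the copies thus had opposite signs. METTL2A took 49.4% and 48.1% of the summed level in OE-WT and 53.5% and 58.3% in CTRL. The sum itself was 52.2 ± 0.774 CPM (SD, n = 2) in OE-WT and 51.2 ± 0.173 CPM in CTRL, a log2 ratio of 0.03. Because reads from an identical run match both genes, the split between them is uncertain. Only the coding bases were compared, out of canonical transcripts of 5799 bases for METTL2A and 5841 for METTL2B. How many reads match both genes was not measured. The sum does not depend on how assigned reads were split, but reads counted for neither gene would be missing from it.

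**Figure D3:**
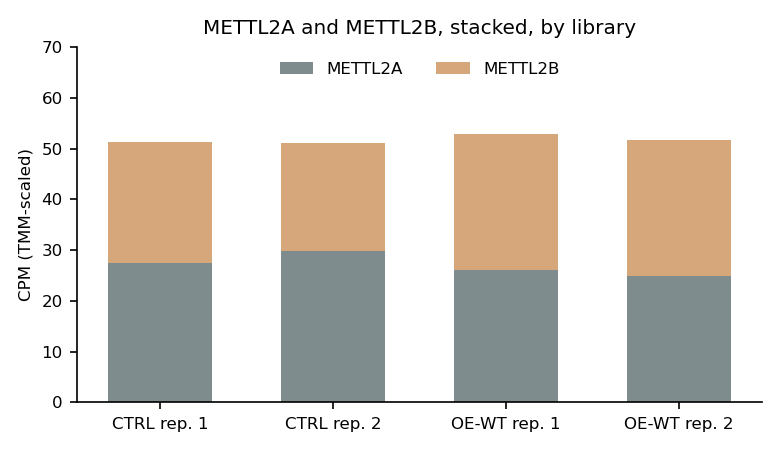
Level in CPM (vertical axis) of METTL2A (grey) and METTL2B (tan), stacked for each of the 4 libraries. The stacks reach 51.3 and 51.1 CPM in CTRL and 52.8 and 51.7 CPM in OE-WT, while the grey part is 27.4 and 29.8 CPM in CTRL and 26.1 and 24.9 CPM in OE-WT.

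The guanosine methylation group holds 9 members, with TRMT112, TRMT10B and TRMT12 placed there by partner, family or pathway. Of the 9, 7 lay above 0 and 1 was called. TRMT1, which makes dimethylguanosine in cytosolic and mitochondrial tRNAs (ENSG00000104907, chr19:13104902-13117567, minus strand), was at 62.1 and 58.3 CPM in OE-WT and at 47.3 and 46.2 CPM in CTRL. Both OE-WT libraries were above both CTRL libraries. The log2 fold change was 0.36 (SE 0.08, adjusted p = 0.0020 by edgeR, Benjamini-Hochberg adjusted), and TRMT1 was called in all 7 alternative fits and with each library left out. Its paralogue TRMT1L was at 5.44 and 6.09 CPM against 4.12 and 5.52 CPM, a log2 fold change of 0.26 (SE 0.21), and was not called.

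TRMT112, the small activator that several methyltransferases need, was the most abundant member. It was at 176.5 and 170.7 CPM in OE-WT and at 176.6 and 171.1 CPM in CTRL, so that the groups overlapped and the log2 fold change was -0.0023 (interval -0.14 to 0.13). Its partner THUMPD3, which makes m2G, was at 12.8 and 11.6 CPM against 7.62 and 10.3 CPM, a log2 fold change of 0.45 (SE 0.17, adjusted p = 0.0622 by edgeR). This value rested on single libraries: without CTRL replicate 1 it was 0.24 (adjusted p = 0.49) and without CTRL replicate 2 it was 0.68 (adjusted p = 0.0101). Without OE-WT replicate 1 the adjusted p was 0.202, and without OE-WT replicate 2 it was 0.0411, all by edgeR. TRMT11, also a partner of TRMT112, was at 3.83 and 2.56 CPM against 2.88 and 3.17 CPM.

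TRMT10A, which makes m1G in the tRNA core, had the second largest log2 fold change of the members, 0.56, but only 2.72 and 3.15 CPM in OE-WT and 2.10 and 1.87 CPM in CTRL (SE 0.29, adjusted p = 0.174 by edgeR). Its paralogue TRMT10B was at 0.23 (interval -0.33 to 0.80), TRMT5, which makes m1G beside the anticodon, at 0.14 (-0.20 to 0.47), and TRMT12, of the wybutosine pathway, at -0.17 (-0.49 to 0.15). None of these passed the test.

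Among the remaining 6 members, THUMPD1 was called. THUMPD1, the tRNA-binding adaptor of the acetyltransferase NAT10 in ac4C synthesis (ENSG00000066654, chr16:20702816-20742084, minus strand), was at 11.4 and 7.76 CPM in OE-WT and at 6.14 and 6.74 CPM in CTRL. Of these, OE-WT replicate 1 stood well above the other 3 libraries. Counts before scaling for library size were 113 and 79 in OE-WT and 79 and 83 in CTRL. The log2 fold change was 0.57 (SE 0.19, adjusted p = 0.0384 by edgeR, Benjamini-Hochberg adjusted). Without OE-WT replicate 1 it was 0.28 with an adjusted p of 0.490, and without CTRL replicate 1 the adjusted p was 0.134. It was also above the threshold with library size alone (0.0518), by DESeq2 (0.199), with every gene of at least 1 count (0.0974) and after removal of the GC trend (0.084).

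The T arm m5U methyltransferase TRMT2A was at 32.9 and 31.2 CPM in OE-WT and at 27.4 and 27.8 CPM in CTRL, a log2 fold change of 0.22 (SE 0.10, adjusted p = 0.116 by edgeR), and was called only after removal of the GC trend (0.0069). Its mitochondrial counterpart TRMT2B was at -0.11 (interval -0.47 to 0.25). FTSJ1, which methylates the ribose in the anticodon loop, was at 0.05 (-0.17 to 0.28), TRMT13, which does so in the acceptor stem, at -0.04 (-0.79 to 0.70), and THG1L, which extends tRNA-His at its start, at 0.10 (-0.16 to 0.37).

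**Figure D4:**
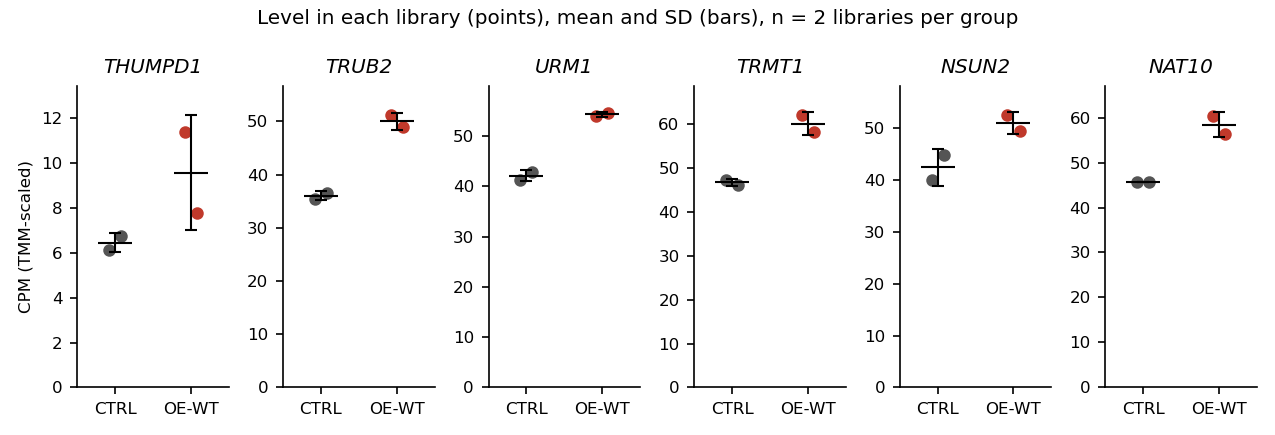
Level in CPM (vertical axis, from 0) of the 5 called members and of NAT10, which is not a member, in each CTRL library (grey points) and OE-WT library (red points), with the mean and SD of 2 libraries as horizontal and vertical bars. Both red points are above both grey points in all 6 panels, and the THUMPD1 points of OE-WT, 11.4 and 7.76 CPM, are the widest apart relative to their mean.

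Each member was assigned to the cytosol, to mitochondria or to both, and the shares by compartment depend on this assignment. Called higher were 3 of 44 members assigned to the cytosol, 1 of 8 assigned to mitochondria and 1 of 5 assigned to both. These are 6.82%, 12.5% and 20% against 9.44% of all genes tested. The medians of the log2 fold change were 0.15, 0.17 and 0.10 in the same order. With 1 call in each of the smaller groups, no difference between compartments was tested.

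Partners of 1 complex or step were next compared by level per length, in CPM per kb of merged exons over the CTRL libraries (mean ± SD, n = 2). METTL1 was at 8.78 ± 0.683 and WDR4 at 3.83 ± 0.517 CPM per kb. CTU2 was at 7.41 ± 0.402 and CTU1 at 4.34 ± 0.239, and URM1 at 9.63 ± 0.256 with MOCS3 at 2.39 ± 0.0512. In each of these pairs the first gene was the higher in all 4 libraries.

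Likewise, GTPBP3 was at 4.72 ± 0.00468 CPM per kb and MTO1 at 1.14 ± 0.0643. QTRT1 was at 4.54 ± 0.0412 and QTRT2 at 1.26 ± 0.136, whereas for wobble inosine the partner ADAT3, at 1.15 ± 0.0156, exceeded the catalytic ADAT2 at 0.226 ± 0.0147. The order held in all 4 libraries and also with the length of the canonical transcript in place of merged exons. ADAT3 counts, as noted for SCAMP4, are uncertain.

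Within Elongator the order was ELP5 (19.9 ± 0.519 CPM per kb), ELP6 (6.94 ± 0.355), ELP3 (4.85 ± 0.0455), ELP2 (3.86 ± 0.194) and ELP4 (0.556 ± 0.0488). Each step of this order held in all 4 libraries with both lengths. In KEOPS it did not: TP53RK exceeded OSGEP per merged exon length (4.95 ± 0.204 against 3.29 ± 0.135), and OSGEP exceeded TP53RK per canonical transcript (8.39 ± 0.344 against 4.96 ± 0.205), each in all 4 libraries. Over all 57 members, the highest CTRL level was that of TRMT112 at 158 CPM per kb of merged exons and the lowest that of TRDMT1 at 0.0843, a ratio of 1875.

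**Figure D5:**
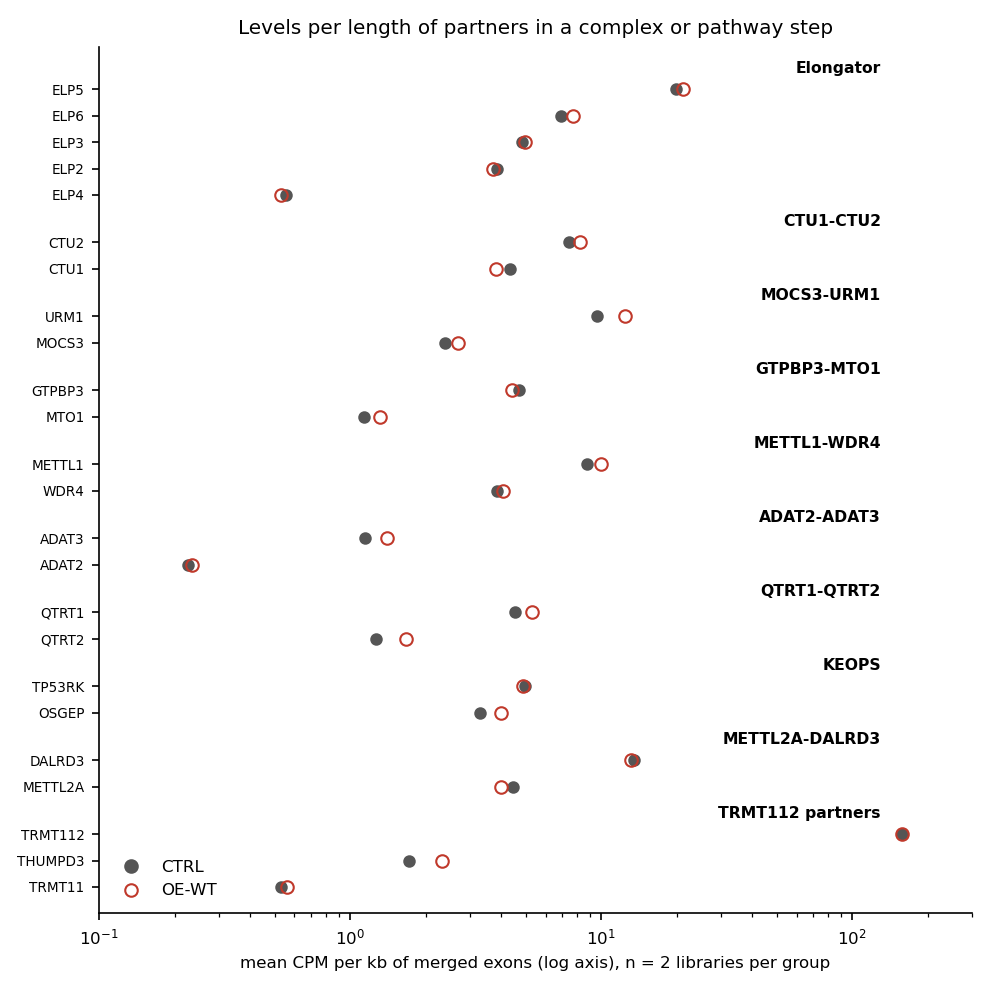
Mean level in CPM per kb of merged exons (horizontal axis, log scale) of partners in 1 complex or pathway step, in CTRL (grey, filled) and OE-WT (red, open), n = 2 libraries per group. TRMT112 stands apart at 158 CPM per kb, and ADAT2 at 0.226 CPM per kb is the lowest gene drawn.

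Several members share exon bases with other annotated genes, and the strand setting of the counting was not stated. This was so for 33 of 57 members, with a gene on the same strand for 12. For 8 the share with 1 other gene exceeded 10% of the member's exon bases, namely ADAT3, TRMT112 (25.8% with ESRRA), ELP4 (19.2% with PAX6), ELP5 (17.0% with CTDNEP1), TRMT10B (15.8% with EXOSC3), THUMPD3 (13.9% with THUMPD3-AS1), TRMT13 (13.1% with LRRC39) and DALRD3 (12.6% with WDR6). None of the 5 called members was among them. Their largest shares with a single gene were 3.38% for TRUB2, 2.2% for TRMT1, 2.08% for THUMPD1, 2.03% for NSUN2 and 0.229% for URM1.

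A further 27 genes of tRNA modification, which complete complexes and pathways of the members, were listed from general knowledge. Of these 26 were tested, with 2 called higher (7.69%, against 9.44% of all genes) and 1 lower (against 11.6%), and TRMT9B did not pass the filter. These shares lay near or below the background. Their median log2 fold change was 0.02, with 14 above and 12 below 0. NAT10, the ac4C acetyltransferase that THUMPD1 serves (chr11:34105617-34147670), was at 60.4 and 56.4 CPM in OE-WT and at 45.6 and 45.6 CPM in CTRL. The groups did not overlap, and its log2 fold change was 0.36 (SE 0.08, adjusted p = 0.00246 by edgeR, Benjamini-Hochberg adjusted). NAT10 was called in all alternatives, whereas THUMPD1 was not.

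GON7, a small KEOPS subunit, was at 8.97 and 10.2 CPM in OE-WT and at 4.04 and 7.71 CPM in CTRL, a log2 fold change of 0.71 (SE 0.22, adjusted p = 0.025 by edgeR). Here CTRL replicate 1 was the low library, and without it the log2 fold change was 0.31 with an adjusted p of 0.395. The call was also lost by DESeq2 (0.125), with every gene of at least 1 count (0.0763) and after removal of the GC trend (0.0538). OSGEPL1, the mitochondrial counterpart of OSGEP, was at 3.53 and 3.15 CPM in OE-WT and at 6.14 and 5.76 CPM in CTRL. It was the only gene of either list called lower, with a log2 fold change of -0.83 (SE 0.22, adjusted p = 0.00911 by edgeR), and the call was lost by DESeq2 (0.105) and without CTRL replicate 1 (0.052). WDR6, the partner of FTSJ1, had a log2 fold change of -0.18 and was not called (adjusted p = 0.0785 by edgeR).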

How the data were processed

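RNA sequencing of 4 libraries, 2 OE-WT and 2 CTRL, was analysed; the 2 lanes of a library were 1 column and counted as 1 replicate. The authors deposited raw counts per Ensembl gene. The sources differ on how these were made: the submitters' processing notes name HISAT2 2.2.1, featureCounts 2.0.0 and DESeq2 1.34.0, with poly(A) selection and a stranded kit per the labels, whereas the paper's methods name rRNA removal, Cutadapt, HISAT2, HTSeq and edgeR, and more replicates per group. Per the labels, cells were washed with cycloheximide and RNA came from a cleared lysate. The build was GRCh38; the annotation release behind these counts is not stated for the RNA sequencing.

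Counts were tested with edgeR 4.0.16 (limma 3.58.1, R 4.3.3): default group-aware filter (minimum 10 counts), TMM scaling, quasi-likelihood fit, Benjamini-Hochberg adjustment over 14133 genes at a threshold of 0.05. SE is the absolute log2 fold change over the square root of F. Intervals are 95%. With 2 libraries per group an exact two-sided permutation test cannot go below p = 0.333. Symbols, exons and coordinates came from GENCODE 44 (57532 identifiers matched), promoter windows from RefSeq GRCh38.p14. Proteins were not analysed here. Intervals and floors cover counting error and the spread of these libraries only.

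Members and lists were chosen with earlier results of these data known. Values are given per library for called members with groups that do not overlap; the other members are given by value or range. Promoters inside annotated exons are not printed, which leaves out TRMT1 and THUMPD1, of which THUMPD1 was the called member with the largest change. The other settings were DESeq2 1.42.0, RLE in place of TMM, library size alone, every gene of at least 1 count (26095 genes), at least 10 counts in every library (13094 genes), a replicate block, a GC trend removed (lowess, span 0.3, GC known for 99.4% of genes) and each library left out, where the lone library is assumed to vary like the other group. Canonical transcript length was added after seeing the data. The steps were tested on simulated counts.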

Additional observations from a re-analysis of the deposited data

How the results depend on the processing

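The number of members called higher was 5; it was 3 with library size only, by DESeq2 and with every gene of at least 1 count, and 3 to 8 with a library left out (3 without OE-WT replicate 1 or CTRL replicate 1, 8 without OE-WT replicate 2). TRUB2, TRMT1 and URM1 were called in all of these. Removal of the GC trend gave 7 (CTU2, DUS1L, TRMT1, TRMT2A, TRMU, TRUB2 and URM1), where 9.86% of all genes were called higher. No alternative called a member lower. DESeq2 gave no adjusted p for 4 members. Groups with a called member numbered 5, counting the mixed remainder that holds THUMPD1. They were again 3 with library size only, by DESeq2 and with every gene of at least 1 count, and their number varied with the library left out. Calls among the other tRNA modification genes were 3, and 6 with library size only (GON7, KTI12, NAT10, NFS1, OSGEPL1 and WDR6) and 1 by DESeq2. Of all genes, these fits called 9.44%, 5.19% and 4.35% higher and 11.6%, 17.3% and 7.15% lower, in the same order. The members' median log2 fold change was 0.14, 0.0438 with library size only and 0.10 to 0.15 with a library left out; the members' median less that of all genes lay between 0.10 and 0.15 in every fit. With library size only, 23.0% of all calls were higher against 44.8% with TMM. The cause was not tested. No called member changed sign; among those not called, 11 did in an alternative fit (CTU1, GTPBP3 and DALRD3 among them) and 15 with a library left out. The deviations of same-numbered libraries from their group means had a correlation of -0.0681 over genes. With 2 libraries per group this cannot show whether the numbers pair the samples, and no source says that they do. With the replicate block 4 members were called higher, where 8.1% of all genes were. NSUN2 was not among the 4 (adjusted p = 0.0509 by edgeR), and the members' median was 0.14.

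The depth of these libraries left 11 members with a mean under 50 counts, and 3 of these had an interval that reached past a 2-fold change. A group of 2 libraries allows no check for an outlying library.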
